A study of Mus musculus with 2 samples.

Results

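The sites described here are the stronger DNase-hypersensitive sites that were called in RANKL-treated RAW264 cells with no peak of the untreated cells near them, away from dense clusters of such sites. A site was taken from the RANKL peak list if it lay on chromosomes 1 to 19, had a peak score of at least 70, and had no peak of the untreated list within 5 kb. Peaks in any fixed 100 kb bin holding 5 or more RANKL peaks without an untreated counterpart were left out, as was chromosome 3 from 55 to 130 Mb. The rule gave 864 sites of the 16447 peaks in the RANKL list. Among the 8239 RANKL peaks that reached the same score on the same chromosomes outside that segment, they made up 10.5%. The score and the distance to the untreated list chose the sites, so both are given as a description and support nothing.

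RAW264 is a mouse macrophage-like cell line that can be turned towards osteoclasts, the multinucleated cells that resorb bone. One library came from RAW264 cells without RANKL treatment and one from RAW264 cells given GST-RANKL, the fusion-tagged cytokine, at 234 ng/ml for 24 hours. Both used DNase-seq, in which DNase I releases short fragments from open chromatin for sequencing. With 1 library per condition no value carries a replicate error, no test was possible, and every difference describes these 2 libraries.

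RANKL binds the receptor RANK on macrophage precursors. It activates NF-kappaB and AP-1 and then NFATc1, the transcription factor that drives the osteoclast programme. Hypersensitive sites mark stretches where bound factors keep DNA free of nucleosomes, such as promoters, enhancers and insulators, and sites opened during differentiation often lie at distal enhancers. The positions below are on mm9, the build named in the submitters' processing notes, and are 1-based. No mm9 annotation or sequence was used here, so the sites are named by position, no sequence is printed, and whether they lie in genes, promoters or repeated sequence was not analysed here. The identity of the cells was not checked against marker genes for the same reason.

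Of these sites, 711 scored above the median of the whole RANKL list, which the minimum score of 70, just under that median, favours. Only 113 scored above the upper quartile of that list, 120. Their median was lower than that of RANKL peaks held to the same minimum that overlapped an untreated peak. The scores of the 864 sites had a median of 83.8 (quartiles 76.0 and 102, highest 393). The whole RANKL list had a median of 73.9. The 7031 RANKL peaks of score 70 or more that overlapped an untreated peak, called shared peaks here, had a median of 121 (quartiles 88.6 and 189). Even the lower quartile of the shared peaks lay above the median of the whole list. Of the 864 sites, 230 scored 100 or more, 57 scored 150 or more and 20 scored 200 or more, and 19 reached the highest 10% of the RANKL list, which began at a score of 213. The higher the score, the rarer such a site was. They were 334 of 1455 RANKL peaks with scores from 70 to 80 (23.0%, 95% Wilson interval 20.9 to 25.2%), 173 of 2205 from 100 to 150 (7.85%, interval 6.80 to 9.04%) and 20 of 1637 at 200 and over (1.22%, interval 0.792 to 1.88%). These intervals cover counting error only and treat neighbouring peaks as independent.

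The peaks nearest the limits of the rule are listed next. They were picked for that closeness, so their small margins say nothing about the other sites. The 3 sites listed first at the lowest score, on chromosome 9 at 77351030 to 77351181, chromosome 18 at 10437997 to 10438148 and chromosome 3 at 135161797 to 135161948, all scored 70.18, and each was 152 bp wide. The 3 peaks just under the limit scored 69.99, 69.99 and 69.94, on chromosome 1 at 166474022 to 166474264, chromosome 5 at 66247904 to 66248036 and chromosome 11 at 105967433 to 105967605. At the distance limit, the nearest sites kept were on chromosome 1 at 163424683 to 163425012 (5.09 kb from an untreated peak, score 152), and on chromosome 11 at 68907988 to 68909128 (5.10 kb, score 166) and at 77914073 to 77914263 (5.10 kb, score 71.0). The peaks just too close lay 4.97, 4.96 and 4.94 kb away, on chromosome 15 at 99206602 to 99206869, chromosome 1 at 75226971 to 75227219 and chromosome 19 at 5930706 to 5931004.

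The sites varied in width, and most were of intermediate width: 294 measured 100 to under 200 bp and 449 measured 200 to under 400 bp. The rule did not use width, although width comes from the same peak calls and moves with the score. Over all 864 sites the median width was 217 bp (quartiles 170 and 293 bp), between the 144 bp of the 3381 weaker RANKL-only sites chosen by the same rule with scores under 70 and the 362 bp of the shared peaks. There were 55 sites under 100 bp (6.37%, interval 4.92 to 8.19%). Of the shared peaks 0.740% were that narrow (interval 0.564 to 0.968%), and of the weaker sites 0.651% (interval 0.430 to 0.983%). At the other end, 66 sites were 400 bp or wider (7.64%, interval 6.05 to 9.60%), against 41.5% of the shared peaks (interval 40.4 to 42.7%) and 0.266% of the weaker sites (interval 0.140 to 0.505%). The limits of 100 and 400 bp were set after the widths had been seen.

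The share of narrow sites was larger in the higher score bands, although most narrow sites had lower scores. From 70 to 80 they were 9 of 334 sites (2.69%) and from 80 to 100 they were 19 of 300 (6.33%). From 100 to 150 they were 14 of 173 (8.09%) and from 150 to 200 they were 5 of 37 (13.5%). At 200 and over they were 8 of 20 (40.0%). At 150 and over, 13 sites were under 100 bp and 20 were 400 bp or wider. Shared peaks were also most often under 100 bp at 200 and over, in 30 of 1584 cases (1.89%). In the bands below, from the lowest up, this share was 0.388%, 0.0678%, 0.566% and 0.603%. The median width of the shared peaks still went up with the score throughout, from 238 bp between 70 and 80 to 572 bp at 200 and over. The RANKL-only sites followed at smaller widths up to a score of 200, with medians of 191, 226, 278 and 393 bp in successive score bands, and then dropped to 118 bp at 200 and over. Across sites, Spearman's rho between score and width was 0.317 over the 864 sites, 0.435 over the 809 sites of 100 bp or more, and 0.697 over the 7031 shared peaks. These values are descriptions of single lists, in which the points share 1 library.

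**Figure D1:**
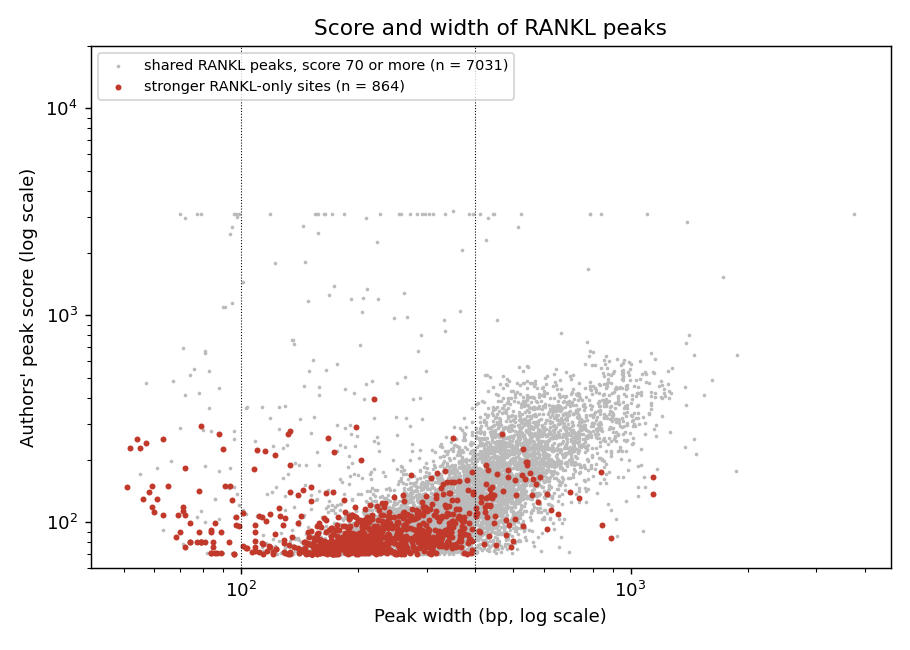
Width in bp (x, log scale) against the authors' peak score (y, log scale) for the 864 stronger RANKL-only sites (red) and the 7031 shared RANKL peaks of score 70 or more (grey), 1 point per peak, with dotted lines at 100 and 400 bp. Most red points lie along the lower part of the grey cloud, and red points under 100 bp reach a score of 291. Grey points lie under 100 bp too: 52 shared peaks were that narrow, and 30 of them scored 200 or more.

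The 20 sites with the highest scores, from 211 to 393, included narrow, intermediate and wide ones. They lay on 9 chromosomes, 5 of them on chromosome 10 and 4 on chromosome 6. Their median width was 118.5 bp, 8 were under 100 bp and 2 were 400 bp or wider. Of the 8 narrow ones, 6 lay over 100 kb from any untreated peak.

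The highest score, 393, belonged to a site of 219 bp on chromosome 1 at 87511244 to 87511462, which lay 8.91 kb from an untreated peak. It was not isolated among RANKL peaks. A 100 kb window that contains it held 10 RANKL peaks without an untreated counterpart, though its fixed bin held 4. A further site with a score of 254 lay on the same chromosome at 87761132 to 87761194 and was 63 bp wide.

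Most of the narrow sites among these 20 stood far from untreated peaks, while the next RANKL peak lay from 10.1 to 830 kb away. On chromosome 10 the site at 54608325 to 54608403 was 79 bp wide with a score of 291. No untreated peak lay within 500 kb of it, and the nearest RANKL peak was 830 kb away. The site on chromosome 8 at 126384576 to 126384629 was 54 bp wide with a score of 254, and the next peak of either list was over 380 kb off (381 kb untreated, 382 kb RANKL). The site at 18995903 to 18995990 of chromosome 19 measured 88 bp and had a score of 266, with the untreated list 274 kb away. On chromosome 18 a site of 57 bp at 67235364 to 67235420 scored 242, at a distance of 129 kb from the untreated list and 44.6 kb from the next RANKL peak. The sites on chromosome 3 at 22305094 to 22305148 (55 bp) and chromosome 10 at 50819538 to 50819589 (52 bp) carried the same score, 229.67, and lay 363 and 353 kb from untreated peaks, with the next RANKL peak at 116 and 10.1 kb. The exceptions were the narrow site on chromosome 1, which lay 29.4 kb away, and a site on chromosome 7 at 27924793 to 27924882. The latter was 90 bp wide, scored 225, lay 25.8 kb away, and had 17 untreated peaks within 500 kb.

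Sites of intermediate width made up 10 of the 20. The site on chromosome 7 at 29279143 to 29279339 (score 288, 197 bp) lay in a stretch rich in open sites, with 19 untreated peaks within 500 kb and the nearest at 33.1 kb. On chromosome 10 the site at 7192483 to 7192616 (score 278, 134 bp) was 116 kb away. On chromosome 6 the site at 67614511 to 67614677 (score 257, 167 bp) was 397 kb away, and the one at 30754779 to 30755128 (score 255, 350 bp) was 91.3 kb away. Chromosome 16 held sites at 11144143 to 11144257 (score 222, 8.12 kb away) and at 59243542 to 59243663 (score 211, 117 kb away). Chromosome 19 held one of score 219, 82.9 kb away, at 23431832 to 23432004. The other members of this width class were the site on chromosome 1 with the highest score and a pair on chromosome 10 described below.

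Of the 66 wide sites, 34 lay within 20 kb of an untreated peak and 14 of these within 10 kb. The strongest of them were both on chromosome 6. The site at 123210044 to 123210510 was 467 bp wide with a score of 268 and lay 6.15 kb from an untreated peak, and a second wide site of score 166 lay beside it at 123216016 to 123216499. The site at 17699097 to 17699627 was 531 bp wide with a score of 226 and lay 14.1 kb away. Next by score were sites on chromosome 5 at 124501887 to 124502430 (score 196, 18.7 kb away), chromosome 8 at 114447218 to 114447755 (score 195, 15.7 kb away) and chromosome 11 at 86505232 to 86505657 (score 190, 6.25 kb away). Wide sites far from the untreated list were few: 7 of 66 lay over 100 kb away, among them chromosome 15 at 40786339 to 40786822 (484 bp, score 178, 656 kb away) and chromosome 6 at 35489419 to 35489848 (430 bp, score 179, 286 kb away).

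The 5 widest sites measured from 840 to 1142 bp. On chromosome 4 a pair at 62157482 to 62158325 (844 bp, score 97.1) and 62162632 to 62163773 (1142 bp, score 137) stood 26.8 and 21.3 kb from the untreated list. On chromosome 11 a pair at 68907988 to 68909128 (1141 bp, score 166) and 68912067 to 68912957 (891 bp, score 83.6) stood 5.10 and 9.18 kb away, in a stretch with 27 untreated peaks within 500 kb. The last, on chromosome 16 at 50529881 to 50530720 (840 bp, score 174), was 96.5 kb away. On chromosome 11, each site of the pair had a further RANKL peak closer to it than the other wide site, at 1.55 and 0.838 kb.

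Narrower sites lay farther from the untreated list. The median distance was 31.0 kb over all 864 sites (quartiles 14.5 and 91.1 kb), against 51.9 kb for the weaker RANKL-only sites. It was 129 kb for the 55 sites under 100 bp (quartiles 27.6 and 390 kb), 50.5 kb for the 294 sites of 100 to under 200 bp, 24.8 kb for the 449 sites of 200 to under 400 bp and 18.7 kb for the 66 sites of 400 bp and over (quartiles 10.5 and 61.9 kb). Sites over 100 kb away were 29 of 55 in the narrowest class (52.7%, interval 39.8 to 65.3%) and 7 of 66 in the widest (10.6%, interval 5.23 to 20.3%). Across the 864 sites Spearman's rho between width and distance was -0.322. Distance entered the rule only as a minimum of 5 kb, but it depends on where the untreated list had peaks, and that list is of broad peaks with a median width of 1738 bp.

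**Figure D2:**
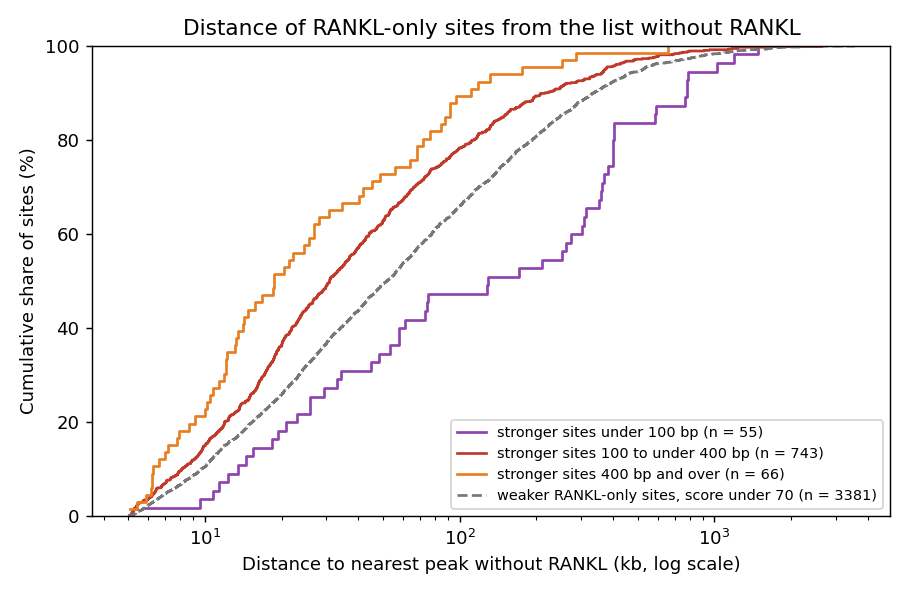
Cumulative share of sites (y, %) by distance to the nearest peak without RANKL (x, kb, log scale) for the stronger RANKL-only sites in 3 width classes (solid lines) and for the 3381 weaker RANKL-only sites (dashed line). The line of the sites under 100 bp lies right of the others, with a median of 129 kb, and that of the sites of 400 bp and over lies left, with a median of 18.7 kb.

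The surroundings told the same order. Within 500 kb of their centres, the sites had a median of 8 untreated peaks (quartiles 4 and 14), the weaker RANKL-only sites 7 and the shared peaks 13. The median was 4 around the sites under 100 bp and 11.5 around those of 400 bp and over. No untreated peak at all lay within 500 kb of 31 sites (3.59%, interval 2.54 to 5.05%), and 9 of these were among the 55 narrow ones. A shared peak has at least 1 such peak by definition.

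The 5 sites farthest from untreated peaks scored from 74.4 to 132. The farthest, at 82643774 to 82643954 of chromosome 14, had a score of 74.4 and a distance of 2655.6 kb, with the next RANKL peak 2656.1 kb away. Next came chromosome 3 at 25418658 to 25419022, with a score of 90.6 and a distance of 1632.4 kb, and a RANKL peak lay 14.8 kb from it. The others were on chromosome 12 at 19719157 to 19719225 (score 109, 69 bp wide, 1487.2 kb), chromosome 2 at 8567427 to 8567586 (score 82.4, 1232.8 kb) and chromosome 7 at 101246383 to 101246629 (score 132, 1220.4 kb). The last had another RANKL peak 25 bp away.

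Many sites carried exactly the same score as others. The score 80.35 occurred at 10 sites on 8 chromosomes, 9 of them under 100 bp wide. The scores 71.45, 89.55 and 150.02 occurred at 5, 4 and 4 sites, all of them from 59 to 94 bp wide. The other scores found at 4 or more sites were 70.18 (6 sites) and 72.08, 72.51, 74.54 and 78.05 (4 sites each), and none of these sites was under 100 bp. Scores are printed to 2 decimals, and ties were common outside the narrow sites too. A score found at 1 or more other RANKL peaks was carried by 69.9% of all 864 sites. This held for 97.0% of the weaker RANKL-only sites and 41.1% of the shared peaks. By width class the share was 46 of the 55 narrow sites (83.6%, interval 71.7 to 91.1%) and 77.2% from 100 to under 200 bp. It was 68.4% from 200 to under 400 bp and 36.4% at 400 bp and over (interval 25.8 to 48.4%). The median scores of the 4 classes, in the same order, were 99.0, 77.3, 85.7 and 132.

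The number of RANKL peaks near these sites is limited by the rule, which left out full bins and the surroundings of untreated peaks. The shared peaks were not filtered in this way. In 504 of 864 cases (58.3%) the site was the one RANKL peak without an untreated counterpart in its 100 kb bin, and the median distance to the next RANKL peak of any kind was 26.4 kb. The weaker sites had a median of 44.4 kb and the shared peaks 7.38 kb. Another RANKL peak lay within 5 kb of 121 sites (14.0%, interval 11.8 to 16.5%), against 6.39% of the weaker sites (interval 5.61 to 7.26%) and 45.6% of the shared peaks (interval 44.4 to 46.8%). In all 121 cases that nearest peak had no untreated counterpart either, which the 5 kb rule nearly fixes. By width class this share was 18.2% under 100 bp, 10.9% from 100 to under 200 bp, 13.6% from 200 to under 400 bp and 27.3% at 400 bp and over. The 95% interval of the widest class overlapped that of the narrowest and lay above those of the classes from 100 to under 200 bp (7.82 to 15.0%) and from 200 to under 400 bp (10.7 to 17.1%). The intervals in this paragraph treat sites as independent, although sites close together count each other. No difference between classes was tested.

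When sites with no more than 10 kb between neighbours were joined, 795 remained single, 54 formed 27 pairs and 15 formed 5 groups of 3. The closest pair lay on chromosome 17, at 87970865 to 87971014 (score 85.4) and 87971021 to 87971196 (score 97.1), with 6 bp between them. The next was on chromosome 7, at 87982517 to 87982950 (score 86.1) and 87983006 to 87983297 (score 78.0), with 55 bp between. A further pair on chromosome 17, at 17141719 to 17141921 (score 199.18) and 17142002 to 17142141 (score 74.96), was 80 bp apart and 368 kb from the untreated list. Joining sites closer than 1 kb left 854 sites of 864.

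The groups of 3 were of different makeup, and 2 of them fell in the same 1 Mb of chromosome 10. That window, from 57 to 58 Mb, held 6 sites, more than any other. Its first trio spanned 7.50 kb from 57157594 to 57165088 with nearly equal scores of 85.3, 84.0 and 84.0 and widths of 312, 263 and 225 bp. The second trio spanned 5.67 kb from 57683667 to 57689334, with scores of 268, 223 and 106 and widths of 132, 110 and 113 bp. It held the pair of high-scoring sites mentioned above, and lay from 11.9 to 17.4 kb from the untreated list.

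Chromosome 8 held a trio far from any untreated peak, with 2 of its 3 sites under 100 bp, and a trio of wider sites. The first ran from 56200178 to 56206894, with scores of 150.02, 77.97 and 80.35, widths of 94, 133 and 93 bp, and nearly even gaps of 3231 and 3166 bp. It stood from 584 to 590 kb from the untreated list, with no untreated peak within 500 kb. The second ran from 77607637 to 77617949, with scores of 86.4, 70.6 and 125 and widths of 288, 380 and 579 bp, from 14.2 to 24.2 kb from the untreated list. The last trio, on chromosome 6 from 29697943 to 29698945, fitted into 1.00 kb, with scores of 75.8, 140 and 182 and widths of 72, 172 and 108 bp.

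**Figure D3:**
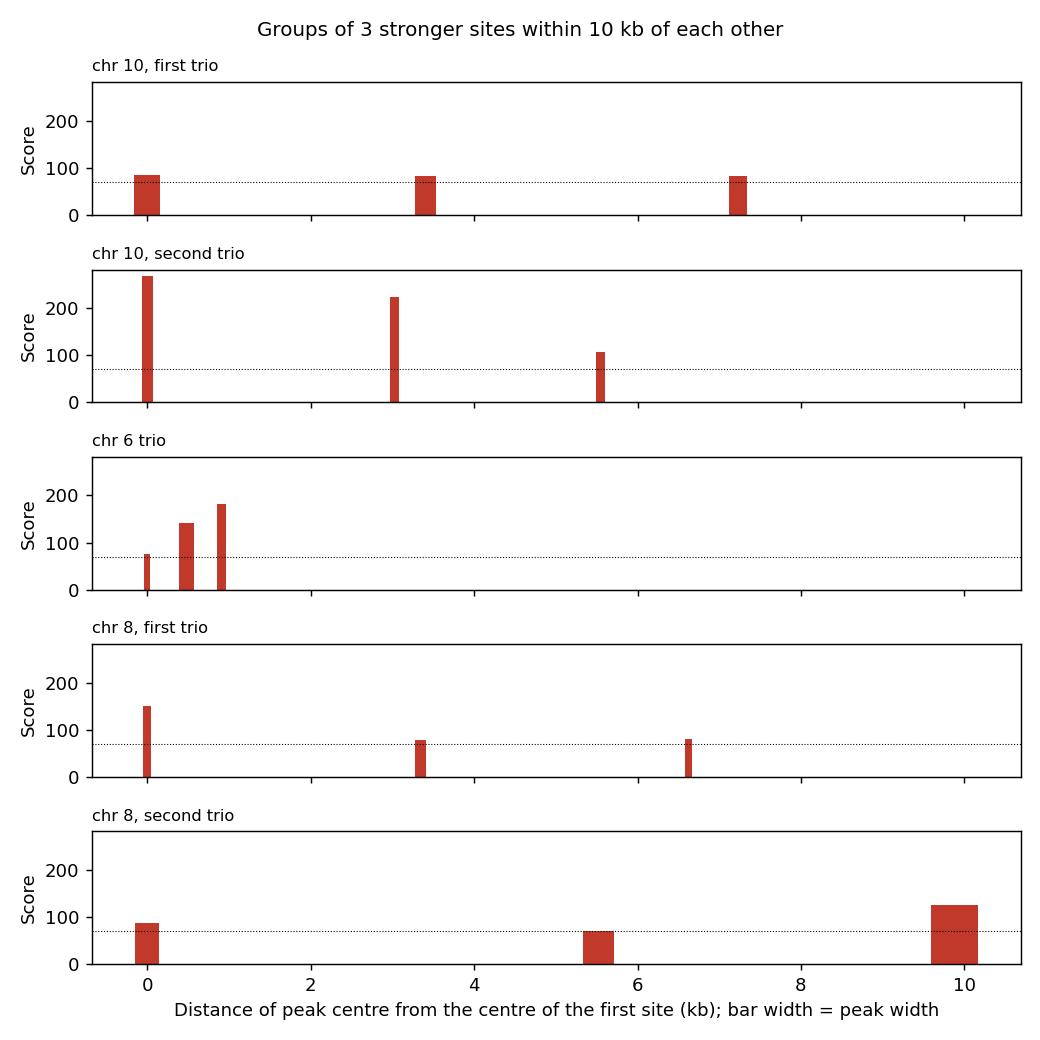
The 5 groups of 3 stronger RANKL-only sites, 1 panel each, with the authors' score (y) against the distance of each peak's centre from that of the first site (x, kb). Bar widths are the peak widths and the dotted line is the minimum score of 70. The sites of the first chromosome 10 trio are of nearly equal height, and those of the first chromosome 8 trio are nearly evenly spaced.

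The exclusion of clusters was not complete, because the bins are fixed. With any 100 kb window in place of the fixed bins, 20 sites (2.31%) lay in a window with at least 5 RANKL peaks that had no untreated counterpart. They included 5 sites on chromosome 8 between 19858057 and 20033063, where windows held from 16 to 24 such peaks, and the 2 on chromosome 1 at 87500788 to 87500921 (score 190) and at 87511244 to 87511462, the site with the highest score of all. The trio on chromosome 6 was also among them. Without these 20 sites the median width was 218 bp and the median distance 31.8 kb, so the values over all sites moved little.

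The sites were spread over all 19 autosomes, from 21 on chromosome 3, of which a part was left out, to 79 on chromosome 1. Set against the shared peaks of the same chromosome, there were 12.3 per 100 shared peaks over all (95% interval 11.4 to 13.2, from the exact Clopper-Pearson interval, for counting error only). Chromosome 13 had the highest ratio, 20.3 (interval 15.1 to 26.8), followed by chromosome 6 with 18.4 (interval 13.8 to 24.3). Chromosome 9 had the lowest, 8.17 (interval 5.58 to 11.6). The intervals of chromosomes 13, 6 and 1 (16.6, interval 12.9 to 21.1) lay above the value for all chromosomes together, those of chromosomes 9 and 7 (9.09, interval 6.66 to 12.2) lay below it, and the other 14 included it. Part of the order depends on what the sites are set against, although chromosomes 13 and 6 were highest and chromosome 9 lowest both ways. Per 100 weaker RANKL-only sites, chromosome 7 had 27.5, above the 25.6 of all chromosomes, while chromosomes 13, 6 and 1 had 33.9, 32.4 and 27.3 and chromosome 9 had 17.2. No test was made, and 19 chromosomes were looked at. On a finer scale, 469 of the 1 Mb windows held 1 site, 130 held 2 and 40 held 3 or more. After the chromosome 10 window, the fullest were chromosome 11 from 97 to 98 Mb and from 115 to 116 Mb, with 5 sites each.

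**Figure D4:**
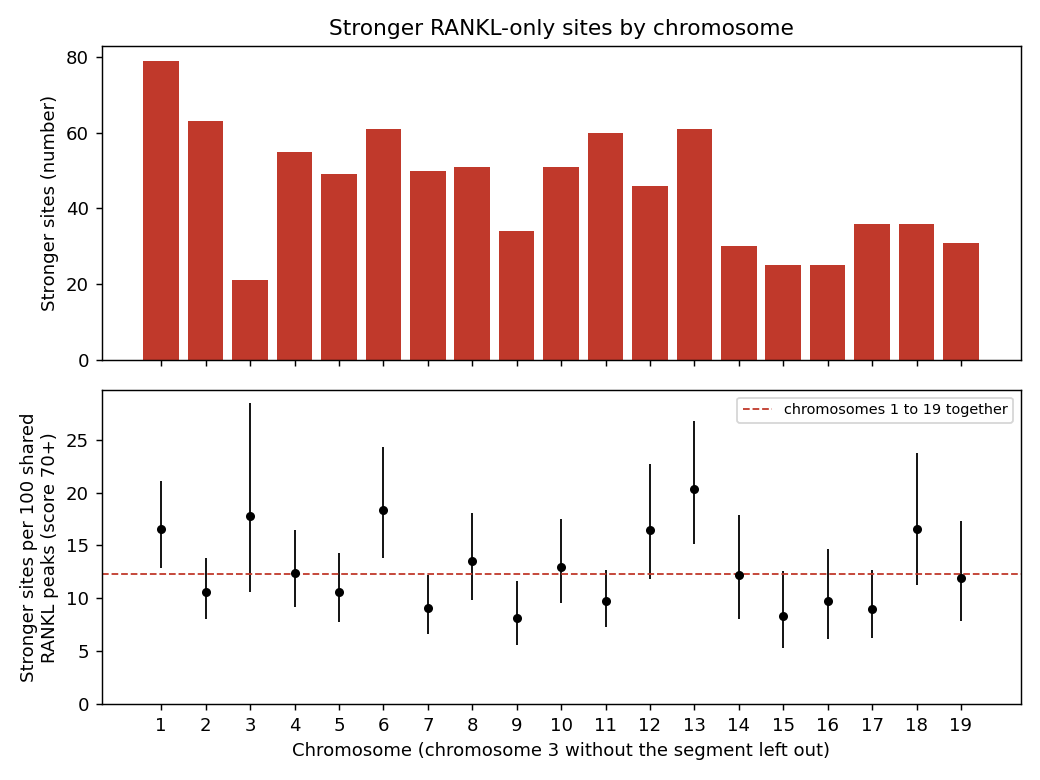
Number of stronger RANKL-only sites on each autosome (upper panel, bars) and their number per 100 shared RANKL peaks of score 70 or more (lower panel, points with 95% intervals for counting error). The dashed line is the value of 12.3 for all autosomes together, which the points of chromosomes 13 and 6 exceed most clearly and that of chromosome 9 falls below.

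The lists come from separate calls of unknown depth, and their peaks differ in form. Untreated peaks had a median width of 1738 bp and none was under 496 bp. RANKL peaks had a median of 233 bp and a minimum of 49 bp. Most sites described here, and all the narrow ones, were thus narrower than any untreated peak. How far this affects which sites count as RANKL-only was not tested. A site absent from the untreated list may have been open below the calling limit.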

How the data were processed

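DNase-seq was done on 1 library of untreated and 1 of RANKL-treated RAW264 cells. The submitters' processing notes name Bowtie2 2.0.0, MACS2 and the mm9 build. The authors deposited 1 peak list per library with a position and a score per peak, called separately. How peaks were called, with which control, and what the score means is not given in the sources. Scores were compared within a list only. Read depth is unknown, and intervals cover the number of peaks only.

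Distances are the bp between peak edges, and a shared peak overlaps by at least 1 bp. Computation used pandas 2.3.3, scipy 1.17.1 and numpy 2.4.6 under Python 3.11.15. The selection was tested on simulated peaks with known distances. The sites and limits were chosen with earlier results of these data known. The named sites are the 20 with the highest score, the 5 widest, the 5 farthest from untreated peaks, the 3 closest pairs and those at the rule's limits. The trios, the strongest wide sites and a few others were chosen after their values were seen. Annotation, gene lists and motifs were planned but not run, as no mm9 reference was used here.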

Additional observations from a re-analysis of the deposited data

How the results depend on the processing

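Under the alternatives tried, 26 of 35 values differed from the reported count by less than 1.5 times, or lay inside the 95% interval of the reported median or share. The number of sites followed the score and distance limits. It was 1629 with a minimum score of 60, 530 with 80 and 230 with 100, and 550 with a distance of 20 kb, each by construction. Shifting the bins by 50 kb gave 873 sites, keeping the clusters 972, and keeping the chromosome 3 segment 934. The median width was 187 bp with a minimum score of 60 and 283 bp with 100. The median distance to the untreated list was 41.9 kb with a limit of 10 kb, by construction. Sites with another RANKL peak within 5 kb were 18.3% with a minimum score of 100, where the cause was not tested, and 8.16% when bins with 3 or more unshared peaks were left out, which removes close neighbours. The rule with any 100 kb window and the omission of sites under 100 bp were added after seeing the data. No replicate could be left out, and no paired analysis was possible because each condition has 1 library. Unknown read depth and the unlike peak widths of the lists limit every statement on sites missing from the untreated list.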
